A study of Mus musculus with 12 samples.

Results

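The effect of a high fat diet on gene expression in mouse abdominal fat pads was read as 1 number per gene, averaged over wild type mice and mice null for p47phox. All 12 arrays of the series entered, so that the mean of 6 high fat diet pools was set against the mean of 6 casein pools with genotype as a factor. The 4 groups of 3 pools each crossed genotype, wild type or p47phox null (P47KO in the labels), with diet, casein or high fat (hfd in the labels). All mice were females of C57BL/6 background, put on their diet at postnatal day 28 and sampled after 13 weeks. Each array carried total RNA of pooled pads. Every p-value therefore measures the spread between pools. The labels give neither the number of animals in a pool nor the make-up of either diet, nor how the null allele was made.

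White fat stores triglyceride, and a fat-rich diet is known to enlarge its adipocytes and to bring changes in lipid enzymes, matrix and resident macrophages. Active glucocorticoid inside fat cells depends partly on Hsd11b1, the gene of 11-beta-hydroxysteroid dehydrogenase type 1, an enzyme of the endoplasmic reticulum that regenerates the active steroid from its inactive keto form. The p47phox protein, encoded by Ncf1, is the cytosolic organizer subunit of the phagocyte NADPH oxidase, which makes superoxide. The averaged contrast asks which genes differ between the diets in the same way with and without this subunit.

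The deposited values were log2 values centred gene by gene on the median of the 12 arrays. A value of 0 is therefore the middle of the 12 pools for that probe set, differences between pools are log2 differences, and the level of a gene against another gene is lost. For this reason the tissue label could not be checked by the level of adipocyte markers. Ncf1, as the mean of its 3 probe sets, stood between 0.07 and 0.85 in the 6 wild type pools. It stood between -0.29 and -0.19 in the 6 null pools, with no overlap, as the genotype labels say. Of the 3, a single probe set did overlap, at -0.27 to 0.26 in wild type and -0.15 to 0.03 in the nulls. Markers of other tissues differed widely between single pools: the median of 18 liver genes stood at 4.33 in pool 3 of wild type on casein. In the same pool the median of 12 adrenal gland genes stood at 1.88. That of 28 skeletal muscle genes stood at 4.58 for hfd pool 2 of wild type, at 3.58 for hfd pool 1 of the nulls and at 2.33 for casein pool 1 of wild type.

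Of 18195 genes tested, 1 passed an adjusted p of 0.05 for the averaged diet effect (limma with Benjamini-Hochberg adjustment over all genes), which is 0.0055% of them. It was Hsd11b1, which was lower on the high fat diet in both genotypes. No gene passed in the other direction, and without adjustment 952 genes (5.23%) had a p under 0.05, 551 higher (3.03%) and 401 lower (2.2%). The count of 1 depended on single pools. It was 9 without wild type casein pool 2, 6 without wild type hfd pool 1, and 2 without wild type casein pool 1, wild type casein pool 3 or wild type hfd pool 2. It was 1 without null casein pool 1 and 0 without any one of the other 6 pools. Within wild type alone 0 genes passed (1384, or 7.61%, at an unadjusted p under 0.05, smallest limma adjusted p 0.0746), and within the nulls 0 passed (727, or 4%, unadjusted, smallest limma adjusted p 0.163). Without wild type casein pool 2, 15 genes passed within wild type.

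The 250 bases before the start of 3 genes are shown because these genes had all 6 hfd pools on one side of all 6 casein pools and lead the results: Hsd11b1, the gene that passed, Slc15a5, the next largest lower gene of that kind, and Cpxm1, the largest higher gene of that kind after Pmepa1. The sequences are those of RefSeq on GRCm38.p6, read 5′ to 3′ on the gene's own strand. All 3 genes matched an entry by symbol, and capitals mark the motif matches described after them.
Hsd11b1: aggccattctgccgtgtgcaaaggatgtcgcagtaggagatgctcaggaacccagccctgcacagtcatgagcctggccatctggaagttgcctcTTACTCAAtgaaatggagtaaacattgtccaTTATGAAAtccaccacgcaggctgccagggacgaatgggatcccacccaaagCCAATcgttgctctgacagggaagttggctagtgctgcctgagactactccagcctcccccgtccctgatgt
Slc15a5: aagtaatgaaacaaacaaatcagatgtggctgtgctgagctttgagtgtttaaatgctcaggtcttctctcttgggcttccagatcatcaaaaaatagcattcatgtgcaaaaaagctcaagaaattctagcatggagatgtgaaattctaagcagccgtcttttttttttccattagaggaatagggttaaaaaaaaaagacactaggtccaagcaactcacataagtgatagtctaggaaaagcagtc
Cpxm1: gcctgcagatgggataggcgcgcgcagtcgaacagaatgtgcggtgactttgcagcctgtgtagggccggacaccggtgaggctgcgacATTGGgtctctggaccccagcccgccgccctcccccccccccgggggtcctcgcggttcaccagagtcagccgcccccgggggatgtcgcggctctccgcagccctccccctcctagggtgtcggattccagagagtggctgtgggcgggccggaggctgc
They lie on the minus strand at chr1:193242361-193242610, chr6:138079917-138080166 and chr2:130397630-130397879. The letters searched on both strands were CCAAT (the CCAAT box), AGAACA (a half-site of the glucocorticoid receptor), TTNNGNAA (a loose C/EBP site), CAGAC (a SMAD-binding element) and AGGTCA (a half-site of nuclear receptors such as PPAR and RXR). The Hsd11b1 window held CCAAT once, with its first base at position -72 from the start, and TTNNGNAA on the opposite strand at position -155 and on the printed strand at -124. The Cpxm1 window held CCAAT once, on the opposite strand at position -161, and the Slc15a5 window held none of the letter strings searched. Among 32851 mouse promoters of the same length, 33.8% held CCAAT, 36.8% TTNNGNAA, 16.1% AGAACA, 42.2% CAGAC and 14% AGGTCA. The matches describe the letters only, and no binding was measured here.

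Hsd11b1 was 3.71-fold lower on the high fat diet averaged over the genotypes (log2 difference -1.89 ± 0.19 SE, limma adjusted p 0.0164, 6 pools against 6). In wild type casein pools its centred log2 values were 0.49, 0.67 and 0.92, and in wild type hfd pools they were -0.49, -1.14 and -1.37. In null casein pools they were 0.69, 1.04 and 1.48, and in null hfd pools -1.40, -0.79 and -0.88. Every hfd pool was below every casein pool, with a gap of 0.97 between the lowest casein pool and the highest hfd pool. The casein pools averaged 0.88 ± 0.35 (SD, n = 6) and the hfd pools -1.01 ± 0.36 (SD, n = 6), so the difference was larger than the spread within either diet. The difference was 3.22-fold within wild type (log2 -1.69 ± 0.26 SE) and 4.27-fold within the nulls (-2.09 ± 0.26 SE). The test of a difference between these 2 values gave -0.41 for null minus wild type, with a limma adjusted p of 0.843. Ranked by p among all genes in either direction, Hsd11b1 had rank 3 in wild type and rank 1 in the nulls. It had rank 4 by size of the averaged difference below 0.

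**Figure D1:**
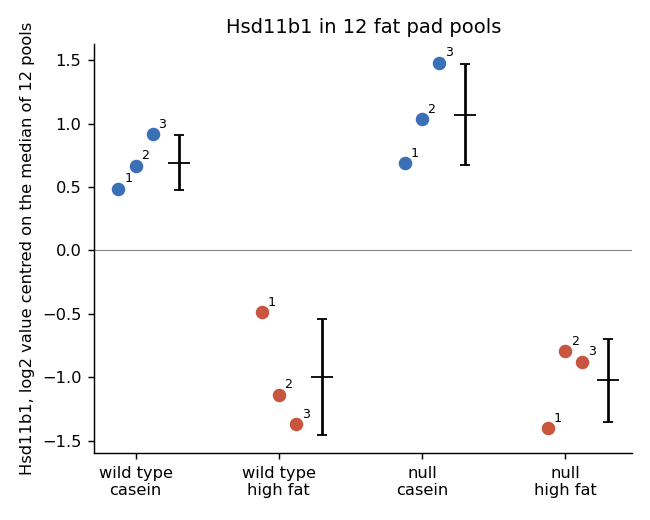
Centred log2 value of Hsd11b1 in each of the 12 pools (points, numbered by pool) by genotype and diet, with the group mean and SD beside them (n = 3 pools each). Casein pools (blue) lie between 0.49 and 1.48 and hfd pools (red) between -1.40 and -0.49, so the diets do not overlap in either genotype.

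Hsd11b1 rests on 1 probe set of the array, which was also the only one of 45101 probe sets to pass when probe sets were tested singly (limma adjusted p 0.0195). Over 25 alternatives its difference ran from -2.33 to -1.68. The call was lost without null casein pool 2 or 3, without wild type hfd pool 3 or without any single hfd pool of the nulls (limma adjusted p 0.0504 to 0.0978), after a further quantile normalization (0.342), without moderation of the variances (0.320) and without the 3 pools highest in liver or muscle genes (0.250). It was also lost with the pool number as a replicate block (limma adjusted p 0.141), a number that marks no shared source in the labels. Liver and fat both express Hsd11b1. Without wild type casein pool 3, the pool highest in liver genes, Hsd11b1 was called with a limma adjusted p of 0.0361. The liver median also stood at 1.14 in wild type hfd pool 3 and at 0.87 in null hfd pool 1. The part of liver RNA in the Hsd11b1 difference was not tested. Among 18 glucocorticoid response genes, a list that contains Hsd11b1, no other member passed. Of the 18, 8 were higher and 3, Hsd11b1 among them, lower in both genotypes, against 23.9% and 23.7% of all genes. The list's median averaged difference was 0.07, or 0.015 without wild type hfd pool 3, against 0.00133 over all genes. Of the other members, those with an unadjusted p under 0.05 were 3: Tsc22d3 (GILZ, an anti-inflammatory target) differed by 0.23 ± 0.09 SE (limma adjusted p 0.916), Ddit4 (an inhibitor of mTOR signalling) by 0.76 ± 0.31 SE (0.940) and Cebpd (an adipogenic transcription factor) by 0.17 ± 0.08 SE (0.943). Ddit4 stood at -1.84 in wild type casein pool 2, and its averaged difference fell to as little as 0.47 when single pools were left out.

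No other gene passed, and 15 further genes, the 8 higher and the 7 lower ones with the smallest p, are given by their values. All had the same sign in both genotypes. Within each genotype the 3 hfd pools lay beyond the 3 casein pools for all of them except Kcnj15 in wild type. The genes were chosen by p from these same pools, so their separation follows largely from that choice and is no separate support. Of all 18195 genes, 2172 (11.9%) were separated in this way within wild type and 1927 (10.6%) within the nulls. In both at once, 71 (0.39%) were higher in both and 35 (0.192%) lower in both, 106 in all (0.583%), while 96 (0.528%) were separated in opposite directions. The limma adjusted p-values of these 15 genes ran from 0.10 to 0.412. The genes just outside, Psmb10 and Apol6 among the higher and Slc35g1 and Haus3 among the lower, differed by 0.41, 0.58, -0.35 and -0.57.

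**Figure D2:**
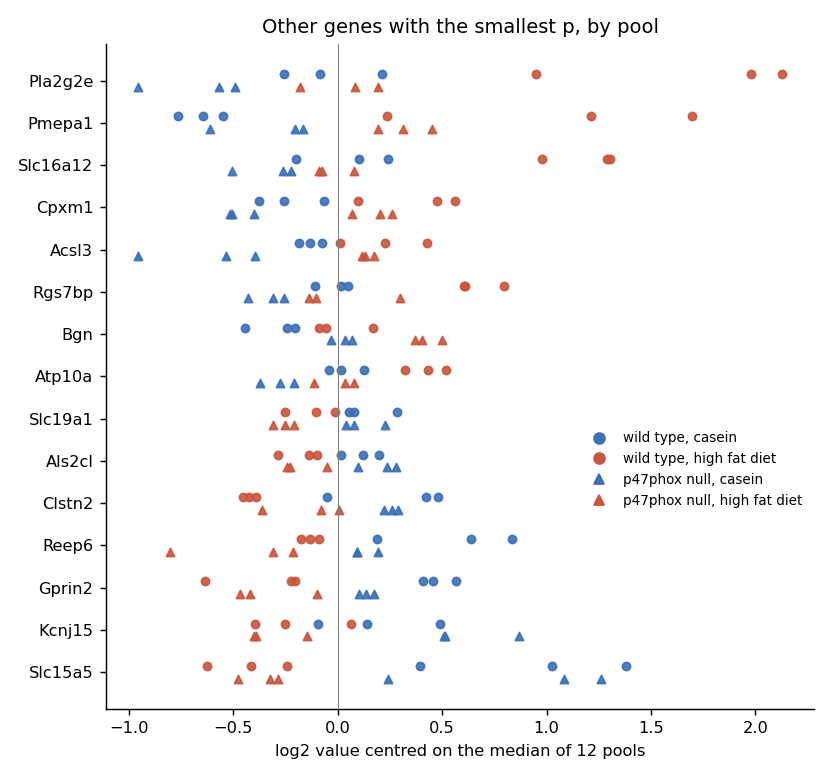
Centred log2 values of the 15 other genes with the smallest p in the 12 pools, 1 row per gene, circles for wild type and triangles for p47phox null, blue for casein and red for the high fat diet. Within each row and each genotype the red points lie on one side of the blue points, except for wild type Kcnj15, where they overlap.

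Among membrane transporters, Slc15a5, a member of the proton-coupled peptide transporter family, had the lowest averaged difference of these 15 genes. Pools of wild type had 1.02, 1.38 and 0.39 on casein against -0.42, -0.24 and -0.63 on the high fat diet. The values were 0.24, 1.08 and 1.26 in null casein pools and -0.48, -0.32 and -0.29 in null hfd pools. No hfd pool reached a casein pool in either genotype, and the difference was -1.29 ± 0.20 SE (limma adjusted p 0.185), -1.36 in wild type and -1.23 in the nulls. Slc19a1, the reduced folate carrier, differed by -0.32 ± 0.06 SE and Kcnj15, an inward rectifier potassium channel, by -0.66 ± 0.12 SE. For Kcnj15 the 3 probe sets gave -1.08, -0.72 and -0.17, the same sign with different sizes. Those of Slc19a1 gave -0.47, -0.45 and -0.02. Slc16a12, a monocarboxylate transporter family member that carries creatine, had the smallest p among the higher genes, 0.72 ± 0.09 SE (limma adjusted p 0.10). Its wild type hfd pools stood at 0.98, 1.29 and 1.30, above wild type casein pools at 0.24, 0.10 and -0.20. The null pools stood at -0.09, 0.08 and -0.08 on the high fat diet and at -0.26, -0.23 and -0.51 on casein. The diets did not overlap within either genotype, and the difference was 1.14 in wild type and 0.30 in the nulls (interaction limma adjusted p 0.789).

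Of the higher genes, 3 code for enzymes or transporters of lipids. Pla2g2e, a secreted phospholipase A2 described in fat cells of obese mice, had the highest averaged difference of the 15 genes, 1.22 ± 0.19 SE (limma adjusted p 0.185). Its wild type values were -0.08, 0.21 and -0.26 on casein and 2.13, 0.95 and 1.98 on the high fat diet. Its null values were -0.96, -0.57 and -0.49 on casein and -0.18, 0.19 and 0.08 on the high fat diet. The diets were separated within each genotype, but null hfd pools overlapped wild type casein pools. Acsl3, a long-chain acyl-CoA synthetase of the endoplasmic reticulum and lipid droplets, differed by 0.56 ± 0.10 SE (limma adjusted p 0.277). Its 6 casein pools lay between -0.96 and -0.08 and its 6 hfd pools between 0.01 and 0.43, without overlap. Atp10a, a phospholipid flippase, differed by 0.34 ± 0.06 SE, with 4 probe sets between 0.12 and 0.47.

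The remaining higher genes code for matrix and signalling proteins. Cpxm1, a secreted carboxypeptidase-like protein, was nearly the same in both genotypes, 0.61 in wild type and 0.65 in the nulls, with an average of 0.63 ± 0.09 SE (limma adjusted p 0.10). Its values were -0.26, -0.07 and -0.38 in wild type casein pools, -0.52, -0.40 and -0.51 in null casein pools, 0.09, 0.56 and 0.47 in wild type hfd pools and 0.26, 0.20 and 0.07 in null hfd pools. All 6 hfd pools were above all 6 casein pools. Pmepa1, a TGF-beta-induced membrane protein that restrains SMAD signalling, differed by 1.17 ± 0.21 SE (limma adjusted p 0.277), and its 3 probe sets gave 1.27, 1.19 and 1.06. Its wild type pools stood at -0.55, -0.77 and -0.64 on casein and 0.23, 1.21 and 1.70 on the high fat diet. Its null pools stood at -0.21, -0.17 and -0.61 on casein and 0.19, 0.45 and 0.31 on the high fat diet, so that the 2 diets did not overlap over all 12 pools. Bgn, the small matrix proteoglycan biglycan, differed by 0.35 ± 0.06 SE, and Rgs7bp, a membrane anchor of RGS proteins, by 0.52 ± 0.08 SE.

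Among the lower genes, Gprin2, a protein linked to G protein signalling in neurite growth, differed by -0.65 ± 0.09 SE (limma adjusted p 0.10). Wild type casein pools had 0.46, 0.41 and 0.57 and those of the nulls 0.10, 0.17 and 0.13. Wild type hfd pools had -0.20, -0.22 and -0.63 and those of the nulls -0.47, -0.42 and -0.10, all below the casein pools. Clstn2, a cadherin-family membrane protein, differed by -0.56 ± 0.10 SE, Reep6, a shaper of endoplasmic reticulum membrane, by -0.63 ± 0.12 SE and Als2cl by -0.33 ± 0.06 SE.

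The 2 genotypes share no pool, so a gene's diet difference in one is measured apart from that in the other. Over all 18195 genes 8663 (47.6%) had the same sign in both, 4347 (23.9%) higher and 4316 (23.7%) lower. Across genes, which are not independent replicates, the wild type and null differences had a Pearson r of -0.11 and a Spearman rho of -0.07. Of 851 genes (4.68%) higher in wild type at an unadjusted p under 0.05, 441 (51.8%) were also higher in the nulls, where 49.9% of all genes were higher. Of 533 genes (2.93%) lower in wild type at that p, 246 (46.2%) were lower in the nulls, against 50.1% of all genes. Of the 851, 34 (4%) were also higher in the nulls at an unadjusted p under 0.05, as were 2.07% of all genes, and of the 533, 20 (3.75%) were also lower at that p, as were 1.93% of all genes. The sign alone was thus shared about as often as by any gene, while the share at that p was larger. Both p-values of a gene use 1 residual spread from the same fit, so they are not independent. The larger share is therefore no separate repeat of the diet difference, and neither share was tested. The interaction itself had 0 genes past the threshold (1113, or 6.12%, at an unadjusted p under 0.05, smallest limma adjusted p 0.789), and 10 without wild type casein pool 2.

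**Figure D3:**
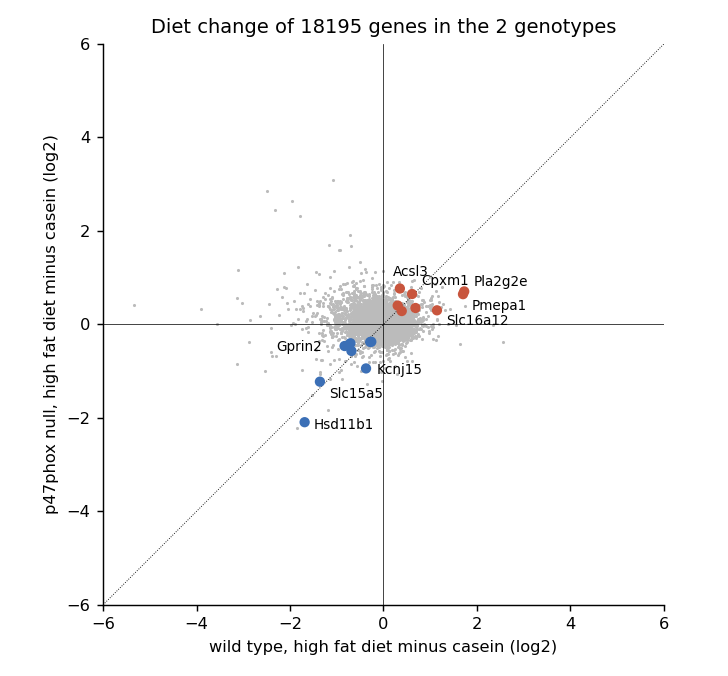
Diet difference of each of 18195 genes (grey points) in wild type (horizontal axis, log2) and p47phox null pools (vertical axis, log2), with the 8 higher (red) and 8 lower (blue) genes of smallest averaged p and some of their names. The grey points do not follow the dotted line of equal differences (Pearson r -0.11), and Hsd11b1 lies farthest along it at -1.69 and -2.09 among the coloured genes.

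In 47 genes (0.258% of all), all 6 hfd pools lay beyond all 6 casein pools, 33 above (0.181%) and 14 below (0.0769%). Their differences were small, with a median size of 0.27 and 26 genes under 0.3, and Hsd11b1 alone among them passed the test. Some genes separate in this way by the order of the pools alone, and the count was not tested against that. The following were picked after their values were seen. Among the higher were Insig1, which retains the sterol sensor SCAP in the endoplasmic reticulum (0.53), Mrc2, an endocytic collagen receptor (0.48), Serping1, the inhibitor of complement C1 (0.35), Psmb10, a subunit of the immunoproteasome (0.41), and Ski, a repressor of TGF-beta signalling (0.27). Among the lower were Nr4a2, an immediate early nuclear receptor (-0.32), and Slc17a1, a phosphate and urate transporter (-0.29).

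Genes known for diet-induced obesity did not pass the averaged test. Lep, the adipokine leptin, differed by 0.25 ± 0.20 SE (limma adjusted p 0.943), at 0.63 in wild type and -0.13 in the nulls. Mest, a gene of expanding adipocytes, differed by 0.77 ± 0.33 SE (0.943), which averaged 1.56 in wild type and -0.02 in the nulls, and the 3 wild type hfd pools at 1.31, 1.17 and 2.90 were the highest of all 12. Npr3, a clearance receptor for natriuretic peptides, had 0.59 in wild type and -0.61 in the nulls and so an average of -0.01 ± 0.25 SE. The interaction test did not pass for Lep (limma adjusted p 0.791), Mest or Npr3 (0.789 each). Adipoq (adiponectin) differed by -0.04 ± 0.13 SE and Pparg, the master regulator of adipocytes, by 0.05 ± 0.11 SE. Col1a1, a chain of type I collagen, differed by -0.10 ± 0.20 SE, with 2 probe sets at 0.06 and -0.26. Ncf1 itself and Nnt, a mitochondrial transhydrogenase deleted in some C57BL/6 stocks, differed by 0.04 ± 0.12 SE and 0.04 ± 0.13 SE. For Npr3, Adipoq, Pparg, Scd1, Col1a1, Ncf1 and Nnt the sign of so small a value turned under other settings. Ccl2, a monocyte-attracting chemokine, differed by 0.29 ± 0.21 SE, Adgre1 (a surface receptor of macrophages) by 0.14 ± 0.13 SE and Itgax (CD11c) by 0.28 ± 0.27 SE. These 3 were above 0 in wild type (0.70, 0.46 and 0.68) and below it in the nulls (-0.12, -0.17 and -0.12). All 3 were highest in wild type hfd pool 3 (1.44, 0.74 and 1.76), and without it their averaged differences were 0.088, 0.044 and 0.0048.

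Gene lists were described by counts and medians, with no test of a list. In bulk fat, fewer cells of a type and less RNA per cell cannot be told apart. The lists of mitochondrial energy metabolism leaned lower in both genotypes. Of 36 genes of the respiratory chain and ATP synthase, 31 were lower in both genotypes and 1 higher in both, where 23.7% of all genes were lower in both. Of 18 citric acid cycle genes 14 were lower in both, and of 23 fatty acid oxidation genes 17. No member of these lists passed, and the median averaged differences were -0.16, -0.16 and -0.12, against 0.00133 over all genes. Examples were Cox5a of complex IV (-0.24 ± 0.10 SE), Atp5a1 of ATP synthase (-0.17 ± 0.07 SE), Pdha1 of the pyruvate dehydrogenase complex (-0.45 ± 0.16 SE), Acadvl, the very-long-chain acyl-CoA dehydrogenase (-0.47 ± 0.21 SE), and Hadhb of the trifunctional protein (-0.30 ± 0.11 SE). The respiratory chain median of the null pools stood at -0.05, 0.01 and 0.04 on casein and at -0.10, -0.12 and -0.13 on the high fat diet, without overlap. In wild type it stood at -0.01, 0.38 and 0.19 on casein and at 0.07, 0.20 and -0.20 on the high fat diet, which did overlap. Wild type casein pool 2 was the highest of all, and without it the 3 medians stood at -0.10, -0.09 and -0.05.

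Among 19 genes of brown and beige fat, the heat-producing adipocytes, 12 were lower in both genotypes and 0 higher in both, with a median averaged difference of -0.61 (-0.97 in wild type and -0.22 in the nulls). None passed, although 6 had an unadjusted p under 0.05, where 2.2% of all genes were lower by that measure. Ucp1, the uncoupling protein of heat-producing mitochondria, differed by -1.99 ± 1.07 SE (limma adjusted p 0.943). Wild type casein pools stood at 1.77, 3.72 and 2.95 and hfd pools of that genotype at -0.86, 1.95 and -2.05. Null casein pools stood at -4.89, 1.41 and 0.86 and null hfd pools at -2.53, -1.05 and -1.60. The diets overlapped in both genotypes, through wild type hfd pool 2 and through null casein pool 1, the lowest of all. Cidea, a lipid droplet protein of brown fat, differed by -1.77 ± 0.72 SE and Elovl3, a fatty acid elongase induced there, by -1.50 ± 0.51 SE. Dio2, which activates thyroid hormone, differed by -0.65 ± 0.26 SE, and Pank1, a kinase of coenzyme A synthesis, by -0.61 ± 0.16 SE, at -1.33 in wild type and 0.11 in the nulls. Without wild type casein pool 2 the list median was -0.51.

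**Figure D4:**
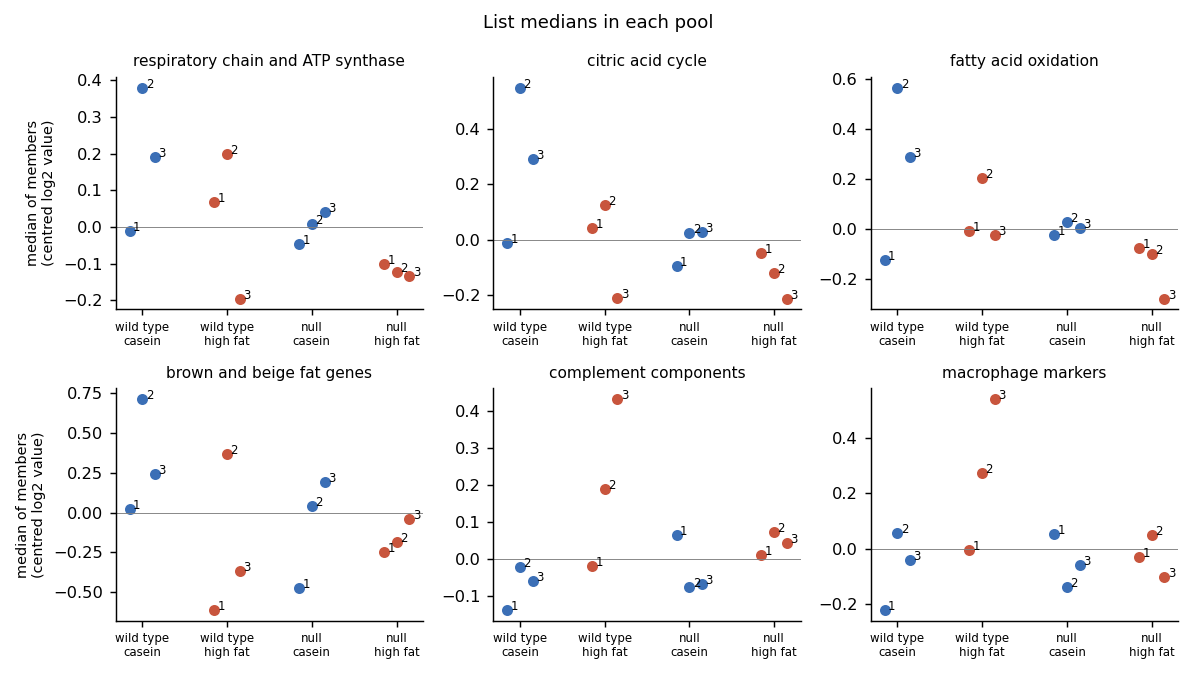
Median over the members of 6 gene lists in each pool (centred log2 value, points numbered by pool, blue for casein and red for the high fat diet, each panel with its own scale). In the null pools the respiratory chain medians of the high fat diet (-0.13 to -0.10) lie below those of casein (-0.05 to 0.04), while wild type casein pool 2 and wild type hfd pool 3 stand apart in several panels.

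Enzymes of fat synthesis went both ways. Of 24 lipogenesis genes 5 were higher and 9 lower in both genotypes, where 23.9% and 23.7% of all genes were so. The list's median was -0.04, and 0.0024 without wild type hfd pool 3. Scd2, a stearoyl-CoA desaturase, differed by 0.73 ± 0.16 SE (limma adjusted p 0.542), at 0.76 in wild type and 0.70 in the nulls, with the diets separated within each genotype. Scd1, its close relative, differed by 0.05 ± 0.08 SE. Elovl6, which elongates palmitate, differed by -0.90 ± 0.31 SE, Acaca (acetyl-CoA carboxylase) by -0.46 ± 0.20 SE, Mlxipl, the carbohydrate-responsive factor ChREBP, by -0.36 ± 0.16 SE and Fasn (fatty acid synthase) by -0.26 ± 0.16 SE. All 4 had the same sign in both genotypes and none passed. Elovl6, Acaca and Fasn stood at -1.80, -0.97 and -0.67 in wild type hfd pool 3, but at 0.02, 0.41 and 0.20 in pool 1. As single pools were left out, their averaged differences came as near 0 as -0.66, -0.28 and -0.13. Srebf1, a regulator of these enzymes, differed by 0.06 ± 0.08 SE. Of 20 genes of cholesterol synthesis and uptake 12 were higher and 1 lower in both, with a median of 0.13, led by Insig1 (0.53 ± 0.19 SE) and Hmgcs1, a synthase early in the pathway (0.35 ± 0.14 SE). That list's median was 0.02 without wild type hfd pool 1 and changed sign with array weights.

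Complement, macrophage and matrix protease lists had medians above 0, larger in wild type than in the nulls. Other immune lists had averaged medians near or below 0. Of 17 complement components 10 were higher and 0 lower in both genotypes, where 23.9% of all genes were higher in both, and the median was 0.19 (0.33 in wild type and 0.12 in the nulls). The complement median stood highest in wild type hfd pool 3 (0.43), and the averaged value was 0.10 without that pool. C1ra and C1s1, the proteases of C1, differed by 0.40 ± 0.12 SE and 0.36 ± 0.12 SE, Serping1 by 0.35 ± 0.10 SE, and C6 of the terminal complex by 0.64 ± 0.21 SE. Of 32 macrophage markers 18 were higher and 1 lower in both, with a median of 0.18, which was 0.32 in wild type and 0.02 in the nulls. The macrophage median stood highest in wild type hfd pool 3 (0.54) and pool 2 (0.27), and null pools of both diets overlapped. Without that pool 3 the averaged macrophage median was 0.096. Of 19 matrix proteases and inhibitors 10 were higher in both (median 0.18), with Mmp2, a gelatinase, at 0.47 ± 0.18 SE and Timp2, its inhibitor and cofactor, at 0.24 ± 0.07 SE. Of 28 collagens and matrix genes 8 were higher and 2 lower in both. Over all genes these shares were 23.9% and 23.7%. The collagen and matrix median was 0.05 (0.19 in wild type and -0.07 in the nulls) and -0.0024 without wild type casein pool 3. No member of these 4 lists passed. The medians of chemokines (0.02), cytokines and acute phase proteins (-0.0063) and interferon-stimulated genes (0.02) lay near 0. So did that of 21 lipid-associated macrophage genes (-0.0016), at 0.21 in wild type and -0.11 in the nulls. Of these, 5 were higher and 3 lower in both. T, B and NK lymphocyte markers leaned lower, 18 of 26 in both genotypes with a median of -0.12, and this was -0.02 without wild type casein pool 3.

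Several lists had medians of opposite sign in the 2 genotypes, and this difference was not tested for any list. Over all genes 47.6% had the same sign in both. Markers of reproductive tissue were the widest apart, oviduct and uterine epithelium at -0.92 in wild type and 0.32 in the nulls (19 of 21 genes of opposite sign) and ovary cells at -0.42 and 0.37 (16 of 21). The ovary median stood between -1.06 and -0.75 in hfd pools of wild type and in its casein pools 2 and 3. It stood between 0.06 and 0.78 in the other wild type pool and all 6 null pools. The endothelial median was 0.33 in wild type and -0.10 in the nulls, with 22 of 24 genes of opposite sign and an averaged median of 0.11, and mature adipocyte markers stood at 0.10 and -0.24, with 15 of 21 opposite. Fat mass expansion genes stood at 0.33 and -0.13, with 14 of 19 opposite. Liver genes averaged -0.42, but 0.35 without wild type casein pool 3, and the skeletal muscle median of -0.16 ran from -1.21 to 0.23 as single pools were left out. The part of these other tissues in the results was not tested beyond the values without those pools.

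**Figure D5:**
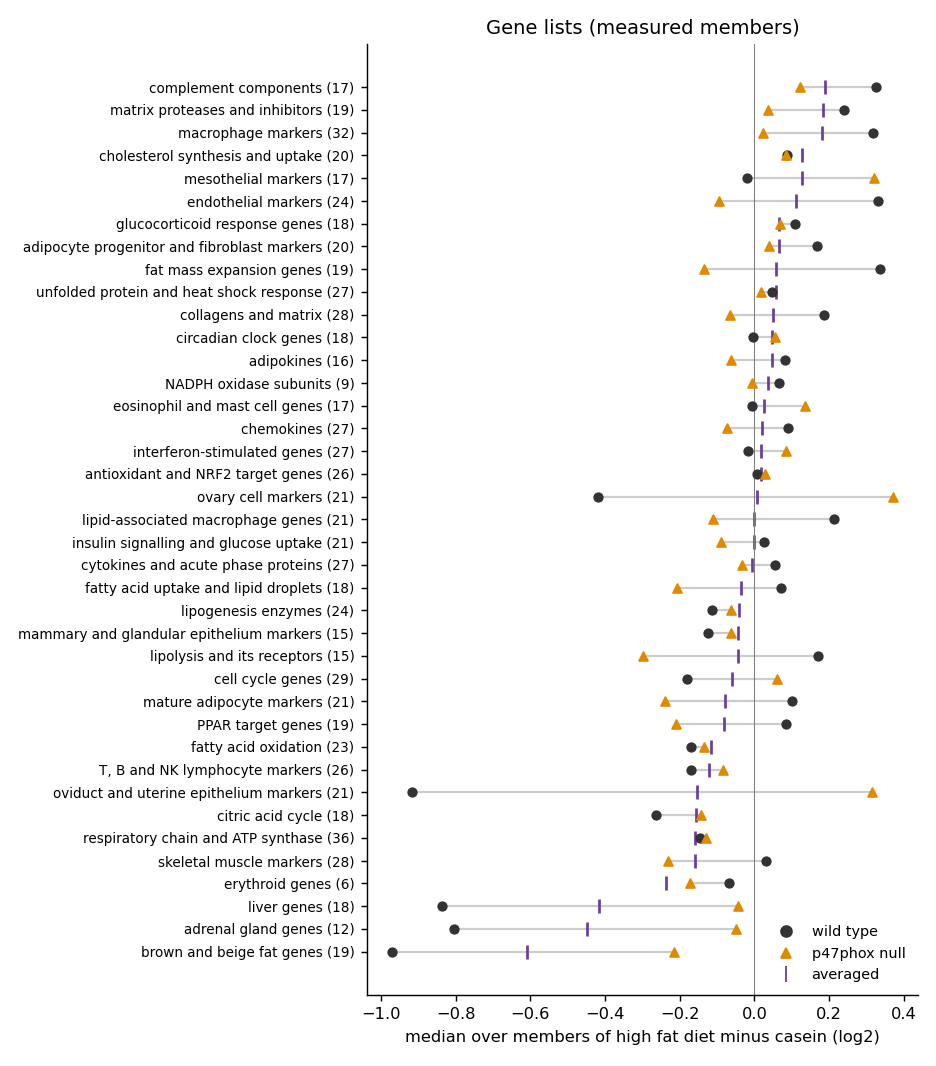
Median diet difference (log2) over the measured members of each gene list, in wild type (circles), p47phox null (triangles) and averaged over both (bars), with the number of measured members in parentheses. Complement (0.33 and 0.12) lies above 0 in both genotypes and the respiratory chain (-0.15 and -0.13) below it, while endothelial markers lie at 0.33 and -0.10.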

How the data were processed

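Total RNA of 12 pools of fat pads was labelled with biotin from 8 µg of RNA and measured on 12 Affymetrix arrays of 45101 probe sets. The extraction text of the labels names rats, whereas the organism given and the array are mouse. The tools named in the submitters' processing notes are GCOS and RMA; their versions and settings are not given in the sources used here. The deposited values are log2 values per the labels that name RMA (base taken as 2), centred on each probe set's median over the arrays, so levels and detection are unknown. Array medians ran from -0.0174 to 0.0224, and the arrays carry no date or batch.

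Probe sets with 1 gene symbol in the platform annotation (34958) were averaged to 18195 genes, and 932 with several symbols and 9211 with none were left out. limma 3.58.1 (R 4.3.3) was fitted to the 4 group means of all 12 pools (residual df 8), with two-sided contrasts, Benjamini-Hochberg adjustment over all genes and a threshold of 0.05. The code was tested on simulated data. The number of arrays limits the precision.

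Named were genes past the threshold with the same sign and separated pools in both genotypes (up to 14 a direction) or, with under 4 of them, the 8 of that direction with the smallest p. Also named were up to 4 members of each of 38 lists, those past the threshold first and then by p, and 16 genes followed whatever their value. Members and lists were chosen with earlier results of these data known, and a list of adrenal gland genes was added after the data were seen. Alternatives changed the fit, block, gene summary, normalization, filter, array weights, covariates and the pools used.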

Additional observations from a re-analysis of the deposited data

Results flagged for a closer look

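Gbp2, an interferon-induced GTPase, was noted because its 3 high fat diet pools all lay above the casein pools in wild type (difference 0.38) and all below them in the nulls (-0.19). The difference between these, null minus wild type, was -0.57 and did not pass the interaction test (limma adjusted p 0.789). It was the only one of 101 genes checked with such opposite movement, which 96 of all 18195 genes (0.528%) had.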

How the results depend on the processing

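Of 101 genes followed, 94 kept the sign of their averaged diet difference in every alternative run, 25 each or 24 for Srebf1, Fdft1 and Keap1, which the filter on small SDs left out. The number of genes past the threshold for the averaged effect, 1, became 2 with the median of the probe sets, 5 with array weights (whose estimation stopped before converging), 4 with ovary, muscle and liver medians as covariates, and 0 after a further quantile normalization or, chosen after seeing the data, without moderation of the variances (934 genes at an unadjusted p under 0.05). It was 0 to 9 when single pools were left out, and 1 without the 3 pools high in liver or muscle genes, where the gene was Pla2g2e and not Hsd11b1. Leaving out single pools gave 0 to 15 genes within wild type, 0 to 1 within the nulls and 0 to 10 for the interaction. Without wild type casein pool 2 the 9 genes included Cyp11a1 (-1.11) and Hsd3b1 (-3.90), both steroid-making enzymes on the ovary list. Hsd3b1 stood at -8.11 in that pool and between -8.86 and -6.16 in wild type hfd pools, against -0.18 to 1.14 in the other casein pools. The ovary list median was -1.06 in wild type casein pool 2. Hsd3b1 (averaged -2.47) was also the lowest member of the adrenal list. In wild type casein pool 3, where Hsd3b1 was not low, the ovary median was -0.87 and the adrenal median 1.88.

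Hsd11b1 kept its direction throughout. Its value was -2.33 after quantile normalization (limma adjusted p 0.342), -1.70 without the 3 pools (0.250), -1.89 without moderation (0.320), and -2.02 to -1.79 without single pools (0.0504 to 0.0978 where the call was lost). Over the 25 alternatives its adjusted p ran from 0.00449 to 0.342.

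With the pool number as a replicate block the averaged count was 0 (959 genes at an unadjusted p under 0.05) and Hsd11b1 stood at -1.89 with a limma adjusted p of 0.141. The numbers mark no shared source in the labels. Same-numbered pools of different groups deviated together (r over 0.1) in 3 of 18 pairs, and 4 of 12 pools matched their own number best. These 3 pairs were all casein against hfd within a genotype: null pools 1 (r 0.55), null pools 3 (0.59) and wild type pools 3 (0.30). The remaining pairs of that kind had r of -0.11 (wild type pools 1), -0.14 (wild type pools 2) and -0.01 (null pools 2).

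Signs turned for values near 0. Npr3 stood at 0.11 with the most variable probe set, 0.24 after quantile normalization, 0.043 with array weights, 0.038 with the 3 covariates, and -0.15 to 0.22 without single pools. Adipoq stood at 0.043 with array weights and -0.12 to 0.073 without single pools. Pparg stood at -0.047 without the 3 pools and -0.019 to 0.12 without single pools. Nnt stood at -0.0030 after quantile normalization and -0.076 to 0.10 without single pools. Without single pools Scd1 ran from -0.0026 to 0.10, Col1a1 from -0.21 to 0.031 and Ncf1 from -0.047 to 0.15. The only alternative centring moved the median of all genes to 0.0054. Signal over background could not be judged, since the values are centred.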
